A study of Homo sapiens with 24 samples.

Results

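The growth of the transcriptional response to 5-FdU-ECyd between 6 h and 12 h was examined in A2780 cells, over the 12 A2780 libraries of the 24 in the series. A2780 is a platinum-sensitive ovarian cancer cell line with wild-type p53. Its derivative A2780cis, which is kept platinum-resistant by repeated passages with cisplatin, makes up the other 12 libraries. They entered the same fit, and so its filter and its estimate of the spread, and were compared with A2780 at the end. With the 12 A2780 libraries alone, 5223 genes passed for the growth, against 4793 with all libraries. The libraries were chosen by their labels: A2780 cells in standard growth medium (untreated) or in medium with 1 μM 5-FdU-ECyd (treated), harvested after 6 h or 12 h, with 3 libraries in each of the 4 groups. Untreated flasks received fresh medium at the same moment as treated ones. The labels do not say that the replicates were separate cultures, so that all p-values measure only the spread between these samples. The question was which genes had reached their response at 6 h, which lost it, and which responded or grew only by 12 h.

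5-FdU-ECyd joins 2 antimetabolites, 5-fluorodeoxyuridine, whose phosphate inhibits thymidylate synthase and so the supply of thymidine nucleotides for DNA synthesis, and ethynylcytidine, whose triphosphate inhibits RNA synthesis. Damage to DNA and a block of transcription both stabilise p53, a transcription factor that induces genes of cell cycle arrest, DNA repair and cell death. When transcription is blocked, a transcript falls at the pace of its own decay, and transcripts of long genes need more time to be completed.

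Between 11096092 and 19283327 reads per A2780 library were counted on genes. Of 13 markers of epithelial ovarian tumour cells 7 (CDH1, CLDN3, KRT7, MUC16, PAX8, SOX17 and WT1) had at most 3 counts in every A2780 library, and the 13 together reached between 2.36 and 7.43 CPM (reads scaled to the size of the library, with TMM factors). The 7 markers of a mesenchymal state together reached 2218 to 2501 CPM in untreated and 1938 to 2160 CPM in treated libraries of 6 h, and 2506 to 2770 and 958 to 1085 CPM at 12 h, with 5 of the 7 down-regulated at 12 h. The 7 markers of fibroblasts, all of them tested, together reached 435 to 480 CPM in untreated and 364 to 415 CPM in treated libraries of 6 h. At 12 h they reached 528 to 550 and 327 to 341 CPM. No marker of endothelial cells and 2 of 7 leukocyte markers exceeded 3 counts. The mitochondrial genome held 5.85% to 6.54% of the reads of untreated libraries, 6.95% to 7.31% after 6 h and 8.32% to 8.85% after 12 h of treatment. In bulk RNA, fewer cells of a kind and less RNA per cell cannot be told apart.

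Untreated replicates 1 and 2 of 6 h had the lowest levels of GC-rich genes of the A2780 libraries, while replicate 3 overlapped the treated libraries of 6 h. The median of the 10% most GC-rich genes against that of the 10% least GC-rich genes, relative to the mean of all libraries, was -1.27, -0.75 and -0.46 on the log2 scale in untreated replicates 1, 2 and 3 of 6 h. It was 0.22, -0.15 and -0.49 in the treated libraries of 6 h, -0.01, 0.10 and 0.42 in the untreated libraries of 12 h and -0.30, 0.30 and 0.36 in the treated libraries of 12 h. Each comparison that uses the untreated libraries of 6 h moved with GC content. From genes with under 40% to genes with 60% GC or more, the median log2 change of untreated cells from 6 h to 12 h went from -0.29 to 0.67, the median log2 FC of treatment at 6 h from -0.23 to 0.46, and the median growth of the response from 0.12 to -0.51. At 12 h the medians of both GC classes were -0.11 and -0.10. The change of treated cells from 6 h to 12 h, which does not use the untreated libraries, also moved with GC content, with medians from -0.16 to 0.14. All counts were therefore also computed with GC offsets, which remove the median difference between libraries among genes of like GC content, an alternative chosen after the data were seen. Whether this gradient arose in the cells or in the libraries was not tested.

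**Figure D1:**
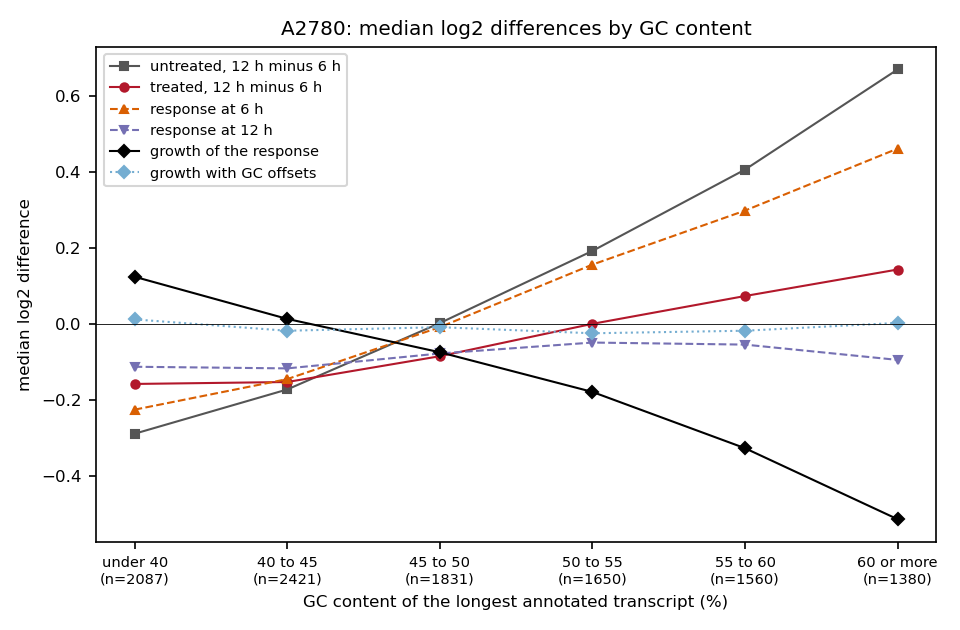
Median log2 change of protein-coding genes whose mean log2 CPM reached 2, by GC content of the longest transcript (x axis, percent). Curves show the response at 6 h, the response at 12 h, the growth of the response without and with GC offsets, and the changes of untreated and of treated cells. The curve of untreated cells climbs from -0.29 to 0.67 and that of the growth falls from 0.12 to -0.51, while the 12 h curve is flat.

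Treatment changed more genes at 12 h than at 6 h. Of 20240 genes tested, 3244 (16.0%) were up-regulated and 2706 (13.4%) down-regulated at 6 h, and 5796 (28.6%) and 5291 (26.1%) at 12 h, by edgeR's quasi-likelihood test, with genes called at adjusted p-values up to 0.05. The split by direction depended on the scaling. With library size alone 8084 were up- and 3349 down-regulated at 12 h, and at 6 h the larger part was down-regulated with RLE size factors (2860 up and 3126 down) and by DESeq2 (2760 and 3004). Of the genes up-regulated at 6 h, 2048 (63.1%) were still up-regulated at 12 h and 134 had become down-regulated. Of those down-regulated at 6 h, 2030 (75.0%) were still so at 12 h and 90 had turned. The growth of the response, that is, the log2 FC (treated against untreated) at 12 h minus the log2 FC at 6 h, passed the threshold for 4793 genes (23.7%), with 2160 (10.7%) higher and 2633 (13.0%) lower at 12 h. With GC offsets 5769 genes passed, 3273 higher and 2496 lower, and 4095 passed in both fits with the same sign. The share of higher genes among those called was thus 45.1% without and 56.7% with GC offsets, and 69.8% with scaling by library size alone, which moved the median growth of all genes from -0.02 to 0.13.

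A growth of the response can come from treated or from untreated cells. Between 6 h and 12 h, 4505 genes (22.3%) rose and 3973 (19.6%) fell in treated cells, and 3354 (16.6%) rose and 2081 (10.3%) fell in untreated cells. With scaling by library size alone, the share that rose went from 53.1% to 77.8% in treated and from 61.7% to 71.9% in untreated cells. The count in untreated cells rested on single libraries: against 5435 genes as fitted, 2291 passed with GC offsets (1510 of them among the 5435), 1846 without untreated replicate 1 of 6 h (1824 of them) and 2324 without untreated replicate 3 of 12 h (2301 of them). With untreated replicates 1 and 2 of 6 h both left out, it was 8 genes, and 2233 genes then passed for the growth.

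Genes were sorted by these calls. A response was early transient when it passed at 6 h but not at 12 h with a growth of the opposite sign, sustained when it passed at both times in the same direction without a call of the growth, growing or shrinking when it passed at both times and its size rose or fell, reversing when it passed at both times in opposite directions, and late when it passed only at 12 h with a called growth. Sustained responses were the most frequent with 1538 genes up and 1503 down, followed by late (1352 and 1502), growing (500 and 518), early transient (371 and 150), reversing (90 up and 134 down at 12 h) and shrinking responses (10 and 9). With GC offsets late genes outnumbered sustained ones (3402 and 2778), as they did without untreated replicate 2 of 6 h (2917 and 2614) and without treated replicate 1 of 6 h (2476 and 2435). With library size alone the split turned towards increases, with 2133 late genes up and 772 down and 2029 and 1154 sustained genes, and 72.1% of growing genes up. For 5058 further genes that passed at 1 time only, the growth did not pass, so that they could not be placed. A sustained call says that no growth was detected. For 1327 of the 3041 sustained genes the 95% interval of the growth lay within a factor of 1.5 either way.

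**Figure D2:**
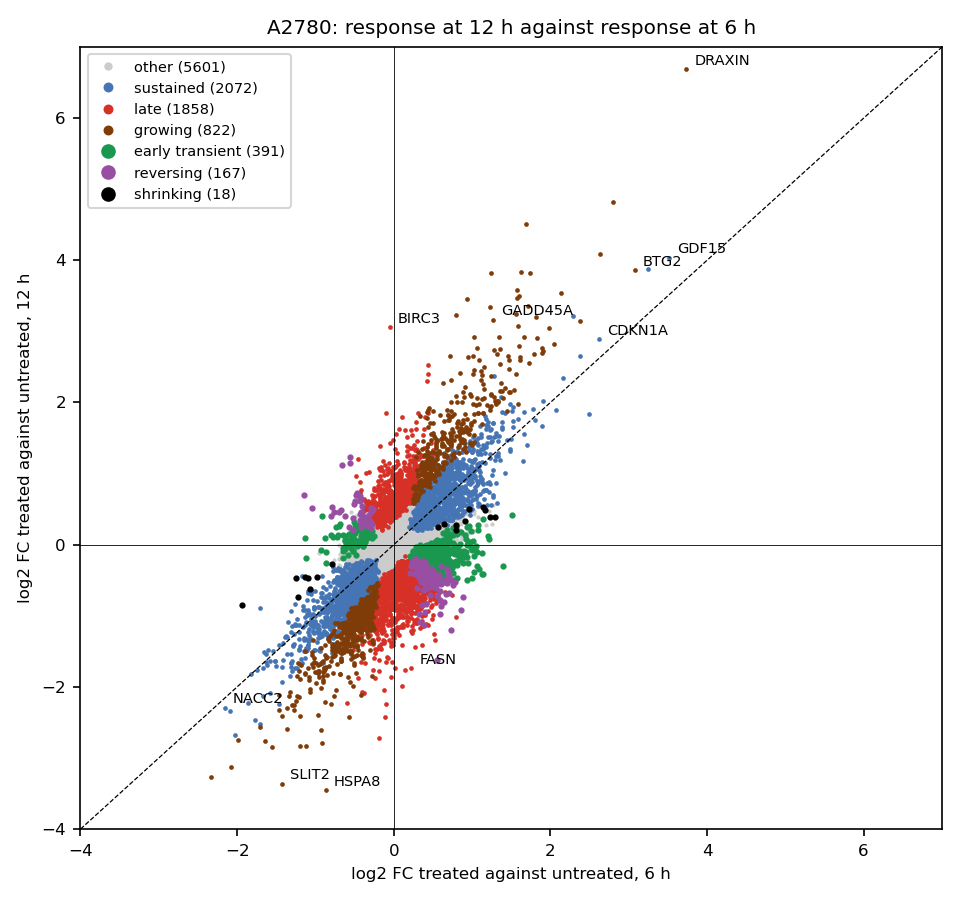
Log2 FC of treated against untreated A2780 cells at 12 h (y axis) against that at 6 h (x axis), 1 point per protein-coding gene whose mean log2 CPM reached 2, coloured by class. Late genes lie along the vertical line at 0, sustained genes near the diagonal, growing genes beyond it, and early transient genes along the horizontal line at 0.

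The classes differed in how far they depended on the untreated cells of 6 h. Of 371 early transient genes up, 73 fell in treated cells, whereas 283 rose in untreated cells, with a median log2 change of -0.13 and 0.56. Their median GC content was 59.2%, and 99 of them were placed in the same class with GC offsets. Of 150 early transient genes down, 99 rose in treated cells and 79 kept their class. For the late genes, 1093 of the 1352 up and 1050 of the 1502 down also moved in treated cells, and 1125 and 985 kept their class with GC offsets. For the growing genes it was 459 of 500 and 482 of 518, with 444 and 422 in both fits. Without untreated replicate 1 of 6 h, the early transient genes went from 521 to 160 and the reversing genes from 224 to 65, against 2854 to 2382 late and 1018 to 713 growing genes.

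**Figure D3:**
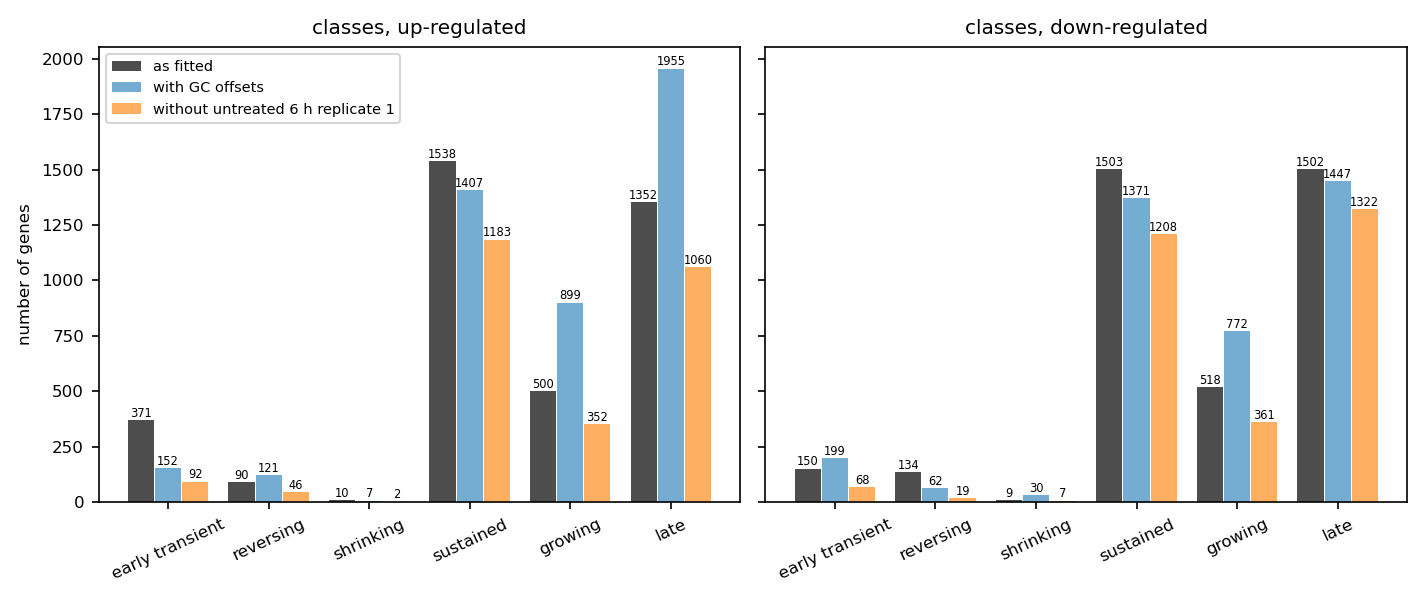
Number of genes in each class and direction, as fitted, with GC offsets and without untreated replicate 1 of 6 h (bars, starting at 0). Early transient genes up go from 371 as fitted to 152 with GC offsets, reversing genes down from 134 to 62 and late genes up from 1352 to 1955.

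BIRC3 (ENSG00000023445.13, chromosome 11 from 102317484 to 102339403), an inhibitor of apoptosis that acts in NF-kappa-B signalling, had the largest growth among the late genes that were chosen by rule. It was at 3.37, 3.50 and 4.18 CPM in the untreated and 2.90, 3.70 and 4.0 CPM in the treated libraries of 6 h. At 12 h it was at 2.71, 2.95 and 2.004 CPM without and at 22.7, 18.7 and 22.6 CPM with treatment. The groups overlapped at 6 h, whereas a lack of overlap at 12 h was part of the rule that chose the gene. The log2 FC went from -0.05 to 3.06, with a growth of 3.12 ± 0.26 (SE), adjusted p = 2.35e-08. The 250 bases before its transcript start (RefSeq, GRCh38.p14, chr11:102317234-102317483, + strand) are shown because they hold 2 matches to the NF-kappa-B site, in capitals, at 199 to 190 and 135 to 126 bases before the start.
BIRC3: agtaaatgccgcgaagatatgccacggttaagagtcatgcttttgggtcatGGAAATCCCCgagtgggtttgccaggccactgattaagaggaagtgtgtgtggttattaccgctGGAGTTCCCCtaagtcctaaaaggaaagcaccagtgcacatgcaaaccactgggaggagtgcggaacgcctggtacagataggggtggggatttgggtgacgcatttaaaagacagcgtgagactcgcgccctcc
A match is a description of the letters and not a measured site. Matches stood in 6 of the 13 promoters available for the list of NF-kappa-B factors and targets (BIRC3, IRF1, NFKB1, NFKBIA, NFKBIZ and REL), or 46.2%, against 6.31% of the 8846 promoters of expressed genes searched from 250 bases before to 50 bases after the start on both strands.

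The NF-kappa-B list had 19 tested members, of which 9 were up-regulated at 6 h, 13 at 12 h and none down-regulated at either time. The growth passed for 7, all higher, with a median growth of 0.43 against -0.02 over all genes. The inhibitors of the pathway were among them. NFKBIA, which holds NF-kappa-B in the cytoplasm, went from a log2 FC of 0.54 to 1.03 (growth 0.49 ± 0.14 (SE), adjusted p = 0.0126). TNFAIP3, a ubiquitin-editing enzyme that ends NF-kappa-B signals, was low, at 0.853, 1.48 and 0.889 CPM in treated libraries of 6 h and 4.76, 3.86 and 3.69 CPM in those of 12 h, against 0.594, 0.521 and 0.565 CPM in untreated libraries of 12 h. Its log2 FC went from 1.05 to 2.85. BIRC2, the paralogue of BIRC3, was late as well, with -0.14 and 0.59, and part of its growth of 0.72 came from untreated cells, in which it changed by -0.48.

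Other late increases by the rule were GLS2, NEURL1B and PRRG4. GLS2, a mitochondrial glutaminase and p53 target, was at 3.02, 1.99 and 3.73 CPM in untreated and 3.84, 3.61 and 4.37 CPM in treated libraries of 6 h, and at 2.90, 2.66 and 2.88 and 14.7, 15.9 and 17.9 CPM at 12 h. Its log2 FC at 6 h was 0.44 (adjusted p = 0.126) and at 12 h 2.52. NEURL1B, a ubiquitin ligase that acts on Notch ligands, had -0.10 and 1.85. PRRG4, a transmembrane protein with a Gla domain, had 0.43 and 2.40, and it fell in untreated cells by -1.04 as log2 FC while it rose in treated cells by 0.92.

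The largest growing increases added to a response that had begun by 6 h. DRAXIN, an inhibitor of axon growth, was at 0.933, 1.14 and 0.818 CPM in untreated and already 11.9, 13.1 and 13.3 CPM in treated libraries of 6 h, and reached 59.9, 72.2 and 71.9 CPM after 12 h of treatment (growth 2.96 ± 0.37 (SE), adjusted p = 4.82e-06). PDE4C, a phosphodiesterase that degrades cyclic AMP, was at 3.88, 2.74 and 4.82 and 13.0, 11.6 and 12.5 CPM at 6 h and at 4.82, 4.34 and 5.45 and 105, 118 and 109 CPM at 12 h. Its growth of 2.81 ± 0.23 (SE) was made of a change of 3.16 in treated and 0.35 in untreated cells. CEACAM1, a cell adhesion molecule, went from 7.25, 7.22 and 5.56 to 36.9, 42.8 and 36.2 CPM in treated libraries (growth 2.58), and AHNAK2, a large scaffold protein, from 6.57, 3.15 and 3.93 to 22.3, 35.9 and 37.3 CPM (growth 2.53). In both, the treated libraries of the 2 times did not overlap.

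Genes of the p53 response rose early and some of them rose further. Of 38 tested members in 4 lists (arrest, repair and nucleotide supply, feedback, cell death), 34 were up-regulated at 6 h and 37 at 12 h, and 20 had a called growth, all higher. The median log2 FC was 1.10 at 6 h and 1.86 at 12 h, against 0.04 and 0.02 over all genes. By class, 18 were growing, 17 sustained and 2 late, and with GC offsets the growth passed for 28, of which 27 were higher. By list, the median went from 2.50 to 3.15 in the 10 arrest genes, from 1.02 to 1.44 in the 10 repair genes, from 0.77 to 1.28 in the 5 feedback genes and from 1.07 to 1.79 in 14 cell death genes. The growth passed for 6, 3, 4 and 8 of them. It passed for 4, 3, 2 and 7 without treated replicate 1 of 6 h, and for 5, 3, 3 and 7 without untreated replicate 1 of 6 h. Differences between the lists were not tested.

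Among the arrest genes, CDKN1A (ENSG00000124762.13, chromosome 6 from 36676460 to 36687337), the p21 inhibitor of cyclin-dependent kinases, was similarly high in treated libraries of both times. It was at 39.8, 59.3 and 55.02 CPM in untreated and 333, 317 and 292 CPM in treated libraries of 6 h, and at 43.1, 44.9 and 45.8 and 322, 332 and 338 CPM at 12 h. The treated libraries of both times overlapped, and the growth was 0.27 ± 0.14 (SE), adjusted p = 0.177. The growth passed with GC offsets (0.60, adjusted p = 0.000142), without untreated replicate 1 of 6 h (0.43) and with scaling by library size alone (0.42). BTG2, an antiproliferative cofactor, behaved as a growing gene, from 21.0, 35.2 and 26.7 to 231, 232 and 232 CPM at 6 h and from 25.5, 24.96 and 29.2 to 385, 390.3 and 382 CPM at 12 h (log2 FC 3.08 and 3.86, growth 0.78 ± 0.16 (SE), adjusted p = 0.000974). GADD45A, a stress protein that binds p21 and PCNA, showed the largest growth of the list. It was at 9.33, 11.5 and 11.1 CPM in untreated and 24.05, 28.2 and 24.3 CPM in treated libraries of 6 h, and at 7.39, 7.99 and 8.58 and 85.6, 66.9 and 63.6 CPM at 12 h. All treated libraries of 12 h were above all those of 6 h, and the log2 FC went from 1.26 to 3.17 (growth 1.90 ± 0.19 (SE), adjusted p = 4.02e-07). Its relative GADD45B had 1.47 and 2.14.

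Among the repair genes, TP53I3, a quinone oxidoreductase, was at 24.5, 31.9 and 29.1 and 90.0, 81.8 and 86.0 CPM at 6 h and at 34.3, 30.2 and 31.4 and 359, 367 and 352 CPM at 12 h, a growth of 1.90 ± 0.15 (SE), adjusted p = 9.74e-09. RRM2B, the p53-induced subunit of ribonucleotide reductase that supplies deoxynucleotides, had a log2 FC of 0.73 and 1.88 (growth 1.15 ± 0.19). DDB2 and XPC, which recognise lesions in nucleotide excision repair, were sustained, with 1.21 and 1.51 for DDB2 and 0.65 and 1.01 for XPC, and the growth of both passed with GC offsets. Of the sestrins, SESN1 was growing (1.42 and 2.21) and SESN2 was sustained (0.88 and 0.61). SESN3 was near the floor, at a mean of 0.558 ± 0.183 (SD, n = 3) and 0.955 ± 0.199 CPM at 12 h, and did not pass at either time. In the feedback list, MDM2, the ubiquitin ligase of p53, went from 0.77 to 1.28 (growth 0.51 ± 0.15 (SE), adjusted p = 0.0152), and ZMAT3, an RNA-binding p53 target, from 0.91 to 2.22. The growth of MDM2 did not pass without treated replicate 1 of 6 h or without untreated replicate 3 of 12 h (0.45 in both cases).

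The genes of cell death split between early and later members. BBC3 and BAX, proapoptotic members of the BCL2 family, were sustained, with 2.49 and 1.84 for BBC3 and 0.91 and 0.80 for BAX. In untreated cells BBC3 was at 1.15, 2.18 and 2.91 CPM at 6 h and at 4.03, 4.98 and 4.98 CPM at 12 h. PMAIP1, another member that acts on MCL1, grew from 0.97 to 2.90, at 3.07, 4.63 and 3.78 CPM in treated libraries of 6 h and 14.2, 9.53 and 10.4 CPM in those of 12 h. TP53INP1, which promotes p53 activity and autophagy, was at 11.6, 12.3 and 11.6 and 49.8, 48.7 and 57.6 CPM at 6 h and at 11.6, 12.3 and 11.4 and 145, 135 and 131 CPM at 12 h (growth 1.41 ± 0.18 (SE), adjusted p = 6.26e-06). CYFIP2, a WAVE complex member, grew from 1.11 to 2.32, and TNFRSF10D, a decoy receptor for a death ligand, from 1.72 to 2.56. CASP6 was late (0.17 and 1.07) and APAF1, the scaffold of the apoptosome, sustained (1.07 and 1.40). In the wider list of BCL2 proteins, death receptors and caspases, 15 of 31 were up- and 3 down-regulated at 6 h and 17 and 3 at 12 h. The growth was higher for 9 and lower for 1, but the sign of the list's median depended on the scaling (-0.06, and 0.16 with GC offsets).

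Immediate early genes, whose transcripts follow growth factor and stress signals within minutes, were more often up- than down-regulated at both times. Of 22 AP-1 and EGR factors, 14 were up-regulated and 2 down-regulated at 6 h and 19 and 2 at 12 h, and the growth passed for 8 higher and 1 lower, with a median of 0.75. Of 20 feedback genes and effectors, 9 were up- and 2 down-regulated at 6 h and 14 and 3 at 12 h, and the growth was higher for 7 and lower for 1. EGR1, a zinc finger factor, was at 5.89, 6.72 and 5.27 CPM in untreated and 17.5, 17.0 and 15.2 CPM in treated libraries of 6 h, and at 9.37, 11.2 and 11.9 and 61.4, 61.7 and 57.9 CPM at 12 h. The treated libraries were above the untreated ones at both times, and the growth was 1.00 ± 0.20 (SE), adjusted p = 0.000723. Its 250 bases before the start (chr5:138465229-138465478, + strand) are shown because they hold 2 matches to the serum response element, in capitals, at 105 to 96 and 83 to 74 bases before the start.
EGR1: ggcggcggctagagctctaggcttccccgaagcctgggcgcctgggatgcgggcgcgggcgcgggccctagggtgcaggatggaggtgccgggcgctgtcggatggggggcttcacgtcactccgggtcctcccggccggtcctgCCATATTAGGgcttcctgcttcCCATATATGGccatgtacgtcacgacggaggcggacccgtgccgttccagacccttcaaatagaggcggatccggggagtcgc
Of 11 promoters of the factor list, 2 (EGR1 and SRF) held a match, and 1.01% of all promoters searched did. ATF3, a stress-induced factor, was at 8.97, 9.27 and 10.6 and 19.6, 21.2 and 21.8 CPM at 6 h and at 10.2, 8.92 and 12.1 and 59.8, 55.7 and 53.9 CPM at 12 h (growth 1.32 ± 0.20 (SE), adjusted p = 6.50e-05). MAFF, a small Maf protein, grew from 0.87 to 2.01 and IER3, an apoptosis regulator, from 0.64 to 1.73. CCN1 and CCN2 encode matricellular proteins induced by YAP and serum. CCN1 was growing (0.97 and 2.11), while CCN2 was late, at 5.29, 6.66 and 6.0 CPM in treated libraries of 6 h and 15.2, 16.6 and 16.4 CPM in those of 12 h, against 5.35, 5.15 and 5.81 CPM in untreated libraries of 12 h (growth 1.54 ± 0.25 (SE), adjusted p = 9.46e-05).

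**Figure D4:**
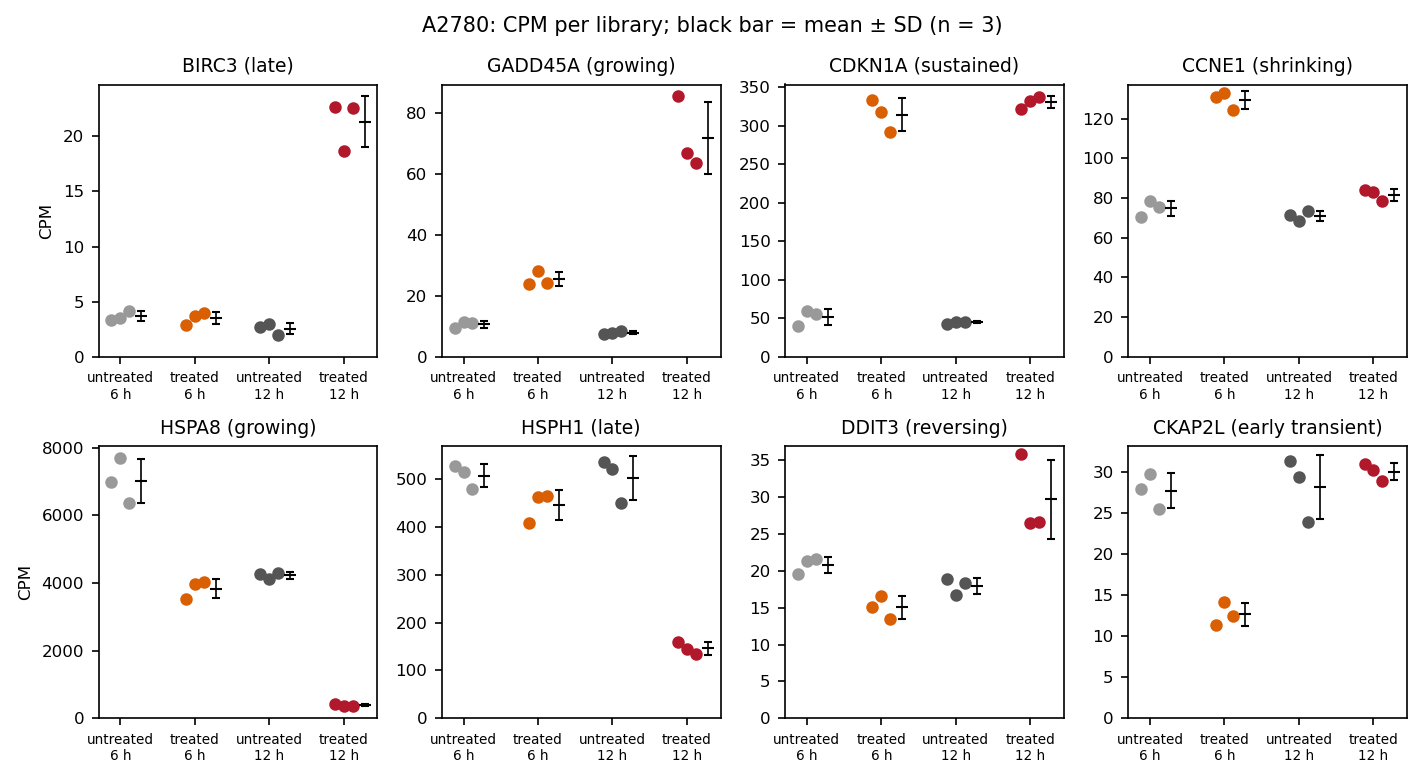
CPM of 8 genes in each A2780 library (points) with mean ± SD of 3 (lines), in the order untreated 6 h, treated 6 h, untreated 12 h, treated 12 h. BIRC3 and DDIT3 are highest in treated libraries of 12 h, CDKN1A is similarly high in treated libraries of both times, CCNE1 peaks and CKAP2L dips in treated libraries of 6 h, and HSPA8 and HSPH1 are lowest in treated libraries of 12 h.

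Chaperone transcripts fell late. Of 36 tested heat shock proteins and chaperones, 2 were up-regulated and 6 down-regulated at 6 h, and 2 and 30 at 12 h. The growth was lower for 27 (75.0%) and higher for 1, against 13.0% lower over all genes, and with GC offsets the counts were the same. By class 23 were late, 4 growing and 1 early transient, the median log2 FC went from -0.14 to -0.88, and 29 fell in treated cells from 6 h to 12 h. HSPA8 (ENSG00000109971.13, chromosome 11 from 123057489 to 123063230), the constitutive HSP70 chaperone, had the largest growth. It was at 6971, 7679.9 and 6368 CPM in untreated and 3515, 3961 and 4026 CPM in treated libraries of 6 h, and at 4265, 4113 and 4290.2 and 426, 360.0 and 371 CPM at 12 h. A lack of overlap of treated and untreated libraries at both times was part of the rule that chose the gene. The log2 FC went from -0.87 to -3.45 (growth -2.58 ± 0.17 (SE), adjusted p = 1.07e-09). Untreated cells also changed, by -0.73, but treated cells by -3.31.

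The 250 bases before the start of HSPA8 (chr11:123062137-123062386, - strand) are shown because they hold 2 matches to the heat shock element GAANNTTCNNGAA, 1 on each strand, in capitals, at 230 to 218 and 55 to 43 bases before the start.
HSPA8: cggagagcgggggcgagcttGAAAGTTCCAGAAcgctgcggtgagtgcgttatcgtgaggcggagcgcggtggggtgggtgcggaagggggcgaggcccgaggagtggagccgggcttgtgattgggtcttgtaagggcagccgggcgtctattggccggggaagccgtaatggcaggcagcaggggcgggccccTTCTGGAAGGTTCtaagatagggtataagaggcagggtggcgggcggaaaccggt
The element was rare: 26 promoters (0.294%) of those searched held it, 4 of the 31 (12.9%) of chaperones among them (CHORDC1, DNAJA1, DNAJB6 and HSPA8). The growth was lower for 10 of the 26 and higher for 3, and it was lower for all 4 chaperones. The other chaperones had no match in this window, which says only that these letters are absent there.

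HSPH1, an HSP110 nucleotide exchange factor for HSP70, was at 527, 513 and 479.5 and 408, 461 and 464 CPM at 6 h, where the fold change did not pass, and at 536, 520.3 and 449 and 159.9, 144 and 134 CPM at 12 h (log2 FC -0.19 and -1.78, growth -1.59 ± 0.13 (SE), adjusted p = 1.93e-08). STIP1, which hands clients from HSP70 to HSP90, went from -0.13 to -1.39, AHSA1, the activator of the HSP90 ATPase, from -0.01 to -1.36, and HSP90AB1, the constitutive cytosolic HSP90, from 0.01 to -1.06. All 3 were late, with a growth of -1.26, -1.35 and -1.07. HSP90AA1, the inducible form, was -0.09 at 6 h and -0.53 at 12 h, and its growth of -0.45 did not pass (adjusted p = 0.0814), though it did with GC offsets (-0.44) and without untreated replicate 3 (-0.61) or treated replicate 1 (-0.55) of 12 h. HSPD1, the mitochondrial HSP60, was late (-0.15 and -0.76). The chaperone of the endoplasmic reticulum HSPA5 was growing, from 744.01, 821 and 784 CPM in treated libraries of 6 h to 406, 359.7 and 345 CPM in those of 12 h, against 1041, 1061 and 1012 CPM without treatment (growth -1.18 ± 0.13 (SE), adjusted p = 9.21e-07).

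The integrated stress response list, which holds targets of ATF4 and of the unfolded protein response, did not move one way. Of 28 members 6 were up-regulated and 10 down-regulated at 6 h and 7 and 15 at 12 h, and the growth was higher for 6 and lower for 8, with a list median whose sign depended on the scaling (-0.06, and 0.07 with GC offsets). DDIT3, the proapoptotic factor CHOP, reversed: it was at 19.6, 21.4 and 21.6 CPM in untreated and 15.1, 16.6 and 13.5 CPM in treated libraries of 6 h, and at 18.9, 16.7 and 18.3 and 35.8, 26.5 and 26.7 CPM at 12 h (log2 FC -0.47 and 0.72, growth 1.19 ± 0.21 (SE), adjusted p = 0.00025). DNAJB9, a chaperone partner of HSPA5, reversed as well (-0.77 and 0.47). WARS1, a tryptophanyl-tRNA synthetase, was late down (-0.13 and -1.17), and PSAT1, an enzyme of serine synthesis, growing down (-0.27 and -1.14).

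More genes for the making of ribosomes were down-regulated at 12 h than at 6 h. Of 71 genes of ribosome biogenesis, 37 were down-regulated and 3 up-regulated at 6 h, and 61 and none at 12 h. Without treated replicate 1 of 6 h, 25 were down-regulated at 6 h. The growth was lower for 41 (57.7%) and higher for none, and with GC offsets lower for 45 and higher for 1. By class 22 were late, 18 growing and 16 sustained, the median log2 FC went from -0.28 to -0.76, and 60 fell in treated cells. NOLC1, a nucleolar chaperone of snoRNPs, was at 504, 529 and 480.0 CPM in treated libraries of 6 h and at 277, 255 and 240.3 CPM in those of 12 h, against 508, 563 and 517 and 560.1, 564 and 552 CPM without treatment (growth -1.05 ± 0.12 (SE), adjusted p = 2.06e-06). NCL, the nucleolar protein nucleolin, went from -0.13 to -1.22, RRP9, a component of the U3 snoRNP, from 0.23 to -1.25, and UTP20, a scaffold of the small subunit processome, from -0.59 to -1.87. BOP1, which matures the large subunit, had the largest growth of the late decreases by rule (-2.53), but it is GC-rich (65.6%), it rose in untreated cells by 1.14, and its growth was -1.88 with GC offsets. The other late decreases by rule, METRN, PEMT and C7orf50, had growths of -2.31, -2.13 and -2.09, and of -1.68, -1.60 and -1.70 with GC offsets. The transcripts of 79 cytosolic ribosomal proteins showed few calls of treatment: 5 were up-regulated at 6 h, and 1 was up- and 14 were down-regulated at 12 h. Over all genes, 16.0% were up-regulated at 6 h, and 28.6% were up- and 26.1% down-regulated at 12 h. The growth was lower for 10 (12.7%), near the 13.0% over all genes. From 6 h to 12 h 39 fell in treated and 25 in untreated cells (medians -0.36 and -0.29). The list median of the log2 FC was -0.07 at 6 h and -0.13 at 12 h and changed sign with the scaling, and many have pseudogenes that share their reads.

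Splicing factors changed mainly between the times. Of 40 SR proteins and hnRNPs, 3 were up-regulated and 12 down-regulated at 6 h, and 6 and 26 at 12 h. The growth was lower for 23 and higher for 3. Of 56 components of the core spliceosome, 4 and 6 passed at 6 h (12 and 3 with library size alone) and 1 and 31 at 12 h, and the growth was lower for 22 and higher for none. SF3B3, a subunit of the U2 snRNP that reads the branch site, was at 319, 381 and 324 and 299, 329 and 302 CPM at 6 h and at 366, 383 and 348 and 155, 144 and 133 CPM at 12 h (growth -1.21 ± 0.14 (SE), adjusted p = 1.31e-06). SNRPB, a core Sm protein, reversed from 0.36 to -0.85. HNRNPK, an RNA-binding protein and p53 cofactor, was late down (-0.13 and -0.87). SRSF5, an SR protein that favours exon inclusion, was among the 3 of its list with a higher growth: it was at 344, 306 and 309.6 CPM in untreated and 173, 179 and 201 CPM in treated libraries of 6 h, and at 309, 302 and 274 and 338, 316 and 318 CPM at 12 h, so that a decrease of -0.80 at 6 h was gone at 12 h (0.13, growth 0.93 ± 0.13 (SE), adjusted p = 2.87e-05). With GC offsets the 12 h value of SRSF5 passed as an increase. Of 36 genes of RNA polymerase II and elongation control, 7 were up-regulated and 5 down-regulated at 6 h and 8 and 16 at 12 h. The growth was higher for 3 (8.33%) and lower for 14 (38.9%), against 10.7% and 13.0% over all genes. With GC offsets it was higher for 5 and lower for 6, against 3273 and 2496 of all 20240 genes tested. With library size alone 10 were up- and 7 down-regulated at 12 h. CDK12, a kinase that sustains elongation over long genes, was growing down (-0.62 and -1.43), as was POLR2B, the second largest subunit (-0.49 and -1.16), while POLR2E, a shared subunit, reversed (0.71 and -0.50).

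Of 28 genes of hypoxia and glycolysis, 4 were up-regulated and 2 down-regulated at 6 h and 1 and 17 at 12 h. The growth was lower for 14 and higher for none (13 and none with GC offsets). HK2, the hexokinase that starts glycolysis, was at 65.5, 66.9 and 68.2 and 40.9, 39.2 and 37.8 CPM at 6 h and at 85.1, 90.7 and 97.4 and 19.9, 22.9 and 19.9 CPM at 12 h (growth -1.36 ± 0.15 (SE), adjusted p = 9.21e-07). SLC2A1, the glucose transporter GLUT1, was late, with 0.01 and -1.26, and about as much of its growth came from untreated cells (0.66) as from treated cells (-0.61). PDK1, which inhibits pyruvate dehydrogenase, was growing (-0.35 and -1.26). Of 24 genes of cholesterol synthesis and uptake, 5 were up-regulated and 12 down-regulated at 12 h. The growth was higher for 1 (4.17%) and lower for 10 (41.7%), against 10.7% and 13.0% over all genes. With GC offsets it was higher for 4 and lower for 10. With library size alone 7 were up- and 9 down-regulated at 12 h. SQLE, squalene epoxidase, was growing down (-0.32 and -0.98), and INSIG1, the sterol sensor that retains SREBP, was late (0.25 and -0.54). FASN, the fatty acid synthase, was at 125, 88.8 and 67.5 CPM in treated libraries of 6 h and 33.0, 61.2 and 69.2 CPM in those of 12 h, but its untreated libraries went from 45.9, 92.2 and 103 to 171, 184 and 189.7 CPM. Its growth of -1.95 was -1.32 with GC offsets.

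**Figure D5:**
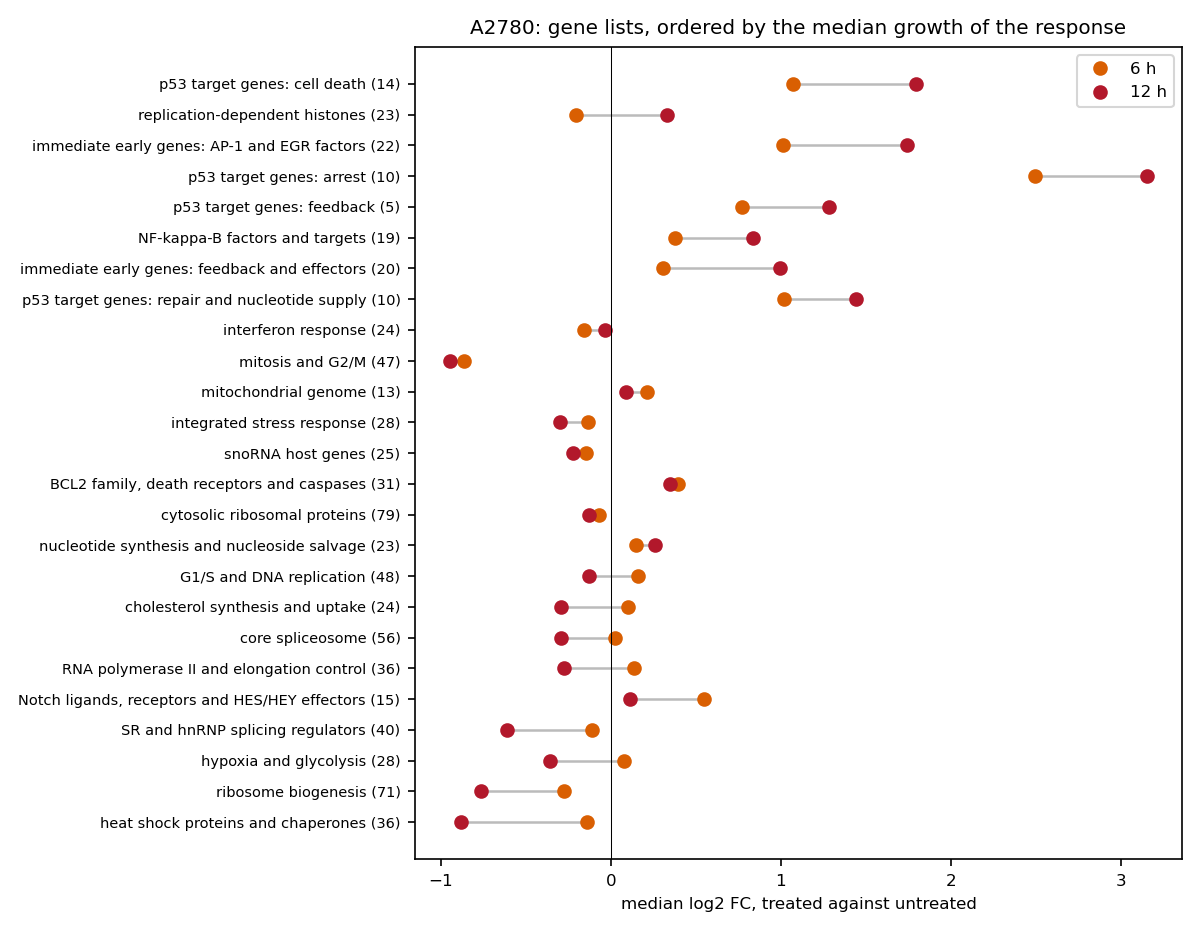
Median log2 FC of treated against untreated A2780 cells at 6 h and at 12 h for each gene list (x axis, log2 scale, 1 line of points per list). Arrest genes of the p53 response move from 2.50 to 3.15, chaperones from -0.14 to -0.88 and ribosome biogenesis from -0.28 to -0.76, whereas the mitosis list stays at -0.86 and -0.95.

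Mitotic genes had fallen by 6 h and stayed low. Of 47 genes of mitosis and G2/M, 41 were down-regulated and none up-regulated at 6 h, and 41 and none at 12 h. The growth was higher for 4 and lower for 6, which at 8.51% and 12.8% is near the shares over all genes, and 29 were sustained. The median log2 FC was -0.86 at 6 h and -0.95 at 12 h. CENPE, a kinetochore motor, was at 216, 152 and 202 CPM in untreated and 54.2, 58.9 and 66.3 CPM in treated libraries of 6 h, and at 184, 171 and 126 and 49.5, 49.5 and 45.2 CPM at 12 h (growth -0.07 ± 0.18 (SE), adjusted p = 0.828). PLK1, the main mitotic kinase, was at 47.6, 64.5 and 57.6 and 19.4, 18.7 and 14 CPM at 6 h and at 77.0, 86.0 and 108 and 13.9, 15.3 and 16.6 CPM at 12 h. Its growth of -0.86 ± 0.21 (SE), adjusted p = 0.00518 lay in the untreated cells, which rose by 0.68, against -0.18 in treated cells. CDC20, the activator of the anaphase-promoting complex, was likewise growing down (-1.08 and -1.86), with 0.46 in untreated and -0.32 in treated cells. The 250 bases before the start of PLK1 (chr16:23678639-23678888, + strand) are shown because they hold a match to the cell cycle homology region (CHR) TTTGAA, the element read by the DREAM complex, in capitals, at 29 to 24 bases before the start.
PLK1: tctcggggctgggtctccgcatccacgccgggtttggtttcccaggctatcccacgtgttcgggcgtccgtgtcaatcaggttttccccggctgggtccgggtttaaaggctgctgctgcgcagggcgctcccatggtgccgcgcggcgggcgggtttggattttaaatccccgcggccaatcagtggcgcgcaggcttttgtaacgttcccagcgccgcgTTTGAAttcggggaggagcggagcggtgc
The CHR letters stood in 29 of the 41 promoters of the mitosis list (70.7%), against 9.56% of all promoters searched, and CCAAT in 32 (78.0%), against 37.4%. Of the 73 promoters of early transient decreases 23.3% held the CHR letters, against 14.6% of 947 of sustained and 14% of 385 of growing decreases. The median GC content was 43.5% in genes with these letters and 47.6% in those without. It was 39.5% in early transient, 41.2% in sustained and 43.1% in growing decreases.

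Several decreases of 6 h were lost or smaller at 12 h. CKAP2L, a spindle protein, was at 27.9, 29.7 and 25.5 CPM in untreated and 11.3, 14.2 and 12.4 CPM in treated libraries of 6 h, and at 31.4, 29.4 and 23.8 and 30.9, 30.2 and 28.9 CPM at 12 h. All treated libraries of 6 h were below all others, and the decrease of -1.13 at 6 h was absent at 12 h (0.09, growth 1.22 ± 0.18 (SE), adjusted p = 3.25e-05). NDC80, an outer kinetochore protein, was at 30.5, 33.5 and 39.2 CPM in treated libraries of 6 h and 66.6, 56.2 and 56.8 CPM in those of 12 h, against 82.3, 77.1 and 64.9 and 75.1, 75.4 and 54.8 CPM without treatment (log2 FC -1.12 and -0.19). GAS2L3, a cytoskeletal protein of the midbody, shrank from -1.93 to -0.84, CDC25C, the phosphatase that activates CDK1, from -1.10 to -0.47 and KIF23, a midbody kinesin, from -1.07 to -0.62. The growth of these shrinking decreases was 1.09, 0.63 and 0.46. That of KIF23 no longer passed when untreated replicate 1 of 6 h (0.39), treated replicate 1 of 6 h (0.38) or untreated replicate 3 of 12 h (0.36) was left out.

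Genes of G1/S and replication were divided. Of 48 members, 19 were up-regulated and 10 down-regulated at 6 h and 17 and 21 at 12 h. The growth was higher for 3 (6.25%) and lower for 12 (25%), against 10.7% and 13.0% over all genes. With library size alone the balance turned, with 21 up- and 14 down-regulated at 12 h and a growth higher for 10 and lower for 9. CCNE1, cyclin E1, which drives entry into S phase, was at 70.6, 78.4 and 75.3 CPM in untreated and 131, 133 and 125 CPM in treated libraries of 6 h, and at 71.4, 68.6 and 73.4 and 84.0, 82.9 and 78.4 CPM at 12 h. Its treated libraries of 6 h were above all others, and the log2 FC shrank from 0.79 to 0.20 (growth -0.59 ± 0.12 (SE), adjusted p = 0.000752). Its paralogue CCNE2 went the other way, from 1.23 to 1.94, at 99.6, 111 and 118 and 101.1, 87.9 and 92.6 CPM in treated and 44.8, 49.4 and 45.5 and 24.8, 26.4 and 22.0 CPM in untreated libraries of 6 h and 12 h, so that its growth of 0.71 lay in untreated cells (-0.93, against -0.22 in treated cells). CDK2, their kinase partner, was sustained (0.77 and 1.00). MCM7, a subunit of the replicative helicase, was late down (0.19 and -0.86), MCM4 reversed (0.21 and -0.40) and ORC1, of the origin recognition complex, was late down (0.18 and -0.52). Of 23 genes of nucleotide synthesis and nucleoside salvage, 7 were up- and 2 down-regulated at 6 h and 11 and 7 at 12 h. The growth was higher for 1 (4.35%) and lower for 5 (21.7%), against 10.7% and 13.0% over all genes. With library size alone it was higher for 5 and lower for 4, and its list median changed sign with GC offsets. UCK2, the uridine-cytidine kinase that phosphorylates cytidine analogues, was among the genes with a lower growth as fitted, and was growing down (-0.35 and -0.95). SLC29A2, a nucleoside transporter, was late down (-0.21 and -1.25).

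The early transient increases with the largest growth were of low abundance. VMO1, a secreted homologue of an egg membrane protein, was at 4.67, 6.24 and 11.5 CPM in untreated and 28.9, 16.6 and 13.0 CPM in treated libraries of 6 h, and at 23.96, 25.8 and 24.4 and 11.7, 21.0 and 26.9 CPM at 12 h. In treated cells it changed by 0.04, and the growth of -1.70 lay in untreated cells, which rose by 1.74. PRR19 (-0.15 in treated and 1.39 in untreated cells) and EGFL7, a secreted endothelial factor (-0.04 and 1.51), had the same pattern, and the growth of EGFL7 no longer passed without untreated replicate 1 (-1.18) or treated replicate 1 (-1.19) of 6 h. HEY1, a repressor of the Notch pathway, differed: it was at 15.7, 17.1 and 17.1 CPM in untreated and 24.5, 27.3 and 30.5 CPM in treated libraries of 6 h, and at 10.1, 12.5 and 9.71 and 12.1, 9.28 and 9.67 CPM at 12 h, so that treated cells fell by -1.41 (log2 FC 0.72 and -0.06, growth -0.79 ± 0.19 (SE), adjusted p = 0.00328, and -0.79 with GC offsets). HES2, another factor of this family, was growing up (2.43 and 6.19), from a level in untreated libraries below 1 CPM. Of 15 genes of the Notch list 8 were up- and 1 was down-regulated at 6 h and 5 and 5 at 12 h. Over all genes, 16.0% were up- and 13.4% down-regulated at 6 h, and 28.6% and 26.1% at 12 h. The growth of the list was higher for 1 and lower for 1 (6.67% each), against 10.7% and 13.0% over all genes. Its median log2 FC at 6 h was 0.55, or 0.20 with GC offsets. Among shrinking increases were ANKRD9 (1.29 and 0.39), ADCK2 (1.24 and 0.39) and TESK1 (1.14 and 0.52), and with GC offsets the growth of ADCK2 (-0.36) and TESK1 (0.05) no longer passed.

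The early transient decreases by rule beside CKAP2L were MC1R, BBS10 and KPNA5. BBS10, a chaperonin-like protein of the cilium, was at 21.3, 18.8 and 18.5 and 10.4, 12.1 and 12.7 CPM at 6 h and at 18.6, 17.1 and 13.8 and 21.2, 17.9 and 19.6 CPM at 12 h, and treated cells rose by 0.73. KPNA5, an importin, had a growth of 0.98 to which untreated cells gave -0.62 and treated cells 0.35. MC1R, the melanocortin receptor, went from -0.92 to 0.40. With GC offsets the 12 h value of all 3 passed as an increase, so that they reversed. Among reversing genes, TIGD1, a gene derived from a transposon, was at 7.11, 5.87 and 7.46 and 4.18, 3.98 and 4.74 CPM at 6 h and at 8.12, 7.47 and 7.14 and 17.1, 18.2 and 14.1 CPM at 12 h (growth 1.78 ± 0.24 (SE), adjusted p = 1.05e-05), and it reversed in both fits. CLDN8 and CLDN17, neighbouring genes of tight junction claudins, went from -0.56 to 1.24 and from -1.15 to 0.70. In the opposite direction, CLCN2, a chloride channel, went from 0.39 to -1.12 and HSPBP1, an inhibitor of HSP70, from 0.61 to -0.87. With GC offsets the 6 h increase of both no longer passed.

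Sustained changes passed at both times without a called growth, which does not show that their size was the same. GDF15, a secreted stress cytokine and p53 target, was at 1.79, 2.93 and 2.73 CPM in untreated and 33.3, 28.6 and 21.9 CPM in treated libraries of 6 h, and at 3.37, 4.63 and 4.73 and 61.0, 70.7 and 79.1 CPM at 12 h, with a log2 FC of 3.51 and 4.04. Its growth of 0.53 did not pass (adjusted p = 0.201), and it changed by 1.33 in treated and 0.81 in untreated cells, whereas with GC offsets the growth was 1.17 and passed. FDXR, mitochondrial ferredoxin reductase, had 2.37 and 2.66, and likewise passed with GC offsets (0.77). Among the sustained decreases by rule were those of NACC2, RSPO2 and B3GALT1. NACC2, a transcriptional repressor, was at 21.3, 21.6 and 22.9 and 6.48, 5.46 and 2.96 CPM at 6 h and at 31.9, 35.0 and 35.4 and 6.31, 7.18 and 7.34 CPM at 12 h (growth -0.13 ± 0.27 (SE), adjusted p = 0.774). RSPO2, a secreted enhancer of WNT signals, had -2.09 and -2.34.

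Growing decreases were frequent among long genes. They made up 64 of 324 protein-coding genes of 300 kb or more and 25 of 1875 under 10 kb. Over all 10929 protein-coding genes whose mean log2 CPM reached 2, they were 470. The median genomic span was 95399 bp in growing and 84155 bp in sustained decreases, against 24702.5 bp in growing and 20952 bp in sustained increases. Over 324 protein-coding genes of 300 kb or more, the median log2 FC was -0.50 at 6 h and -0.81 at 12 h, and the growth was lower for 26.5% and higher for 3.40%. Over 1875 genes under 10 kb the median was 0.21 and 0.00, and the growth was lower for 24.3% and higher for 10.2%. With GC offsets, the median growth was -0.24 in the longest and 0.04 in the shortest genes. Within long genes, SLIT2, a guidance ligand with a span of 368657 bp, was at 133, 129 and 137 and 48.4, 49.1 and 50.8 CPM at 6 h and at 157, 157 and 158 and 15.7, 14.1 and 16.2 CPM at 12 h (growth -1.93 ± 0.15 (SE), adjusted p = 9.56e-09). MAP2, a microtubule protein of neurons, went from -1.12 to -2.83, and SAPCD2, a regulator of spindle orientation that is short and GC-rich (66.5%), from -0.92 to -2.79. Genes with 1 exon stood at the other end: of 182, the growth was higher for 29.7% and lower for 11%, with a median of 0.19, against -0.20 over 4745 genes with 11 or more exons.

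Replication-dependent histones are genes of 1 exon that lack a poly(A) tail and were captured as total RNA. Of 58 listed, 23 were tested, of which none was up- and 3 were down-regulated at 6 h, and 9 and 3 at 12 h. The growth was higher for 8 and lower for 2, with a median of 0.80, and 12 rose in treated cells, but the sign of the list's 12 h median depended on the filter on low counts. H4C14 was at 2.58, 2.84 and 2.73 and 1.88, 3.52 and 1.78 CPM at 6 h and at 2.77, 3.30 and 3.03 and 11.1, 9.87 and 9.52 CPM at 12 h (growth 1.94 ± 0.29 (SE), adjusted p = 4.78e-05), whereas H2BC12 fell late (0.06 and -1.27). Copies of histone genes are nearly identical and share reads, so that single members are uncertain. In the interferon list of 24 genes, 1 was up- and 8 were down-regulated at 6 h and 6 and 7 at 12 h. Over all genes, 28.6% were up- and 26.1% down-regulated at 12 h. The growth was higher for 3 of the 24 (12.5%) and lower for 2 (8.33%), near the 10.7% and 13.0% over all genes. STAT2, a transducer of interferon signals, was late up (0.16 and 0.82) and HERC5, a ligase for ISG15, was late up (0.44 and 1.68). Of the 13 protein genes of the mitochondrial genome, 2 were up-regulated at 6 h and 2 up- and 1 down-regulated at 12 h, and the growth passed for none by edgeR's test or by DESeq2, with 1 at an unadjusted p-value under 0.05, and for 2 with GC offsets (both lower). Of 25 hosts of snoRNAs, the growth was higher for 3 (12%) and lower for 5 (20%), against 10.7% and 13.0% over all genes. SNHG3 was early transient down, from 68.0, 67.3 and 81.0 CPM in treated libraries of 6 h to 112, 113 and 102 CPM in those of 12 h, against 138, 109.9 and 136 and 131, 124 and 126 CPM without treatment (log2 FC -0.82 and -0.22).

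The growth in A2780 was compared with that in A2780cis by the difference of both, fitted in 1 model. It passed for 87 genes (0.430%), of which 30 had a higher and 57 a lower growth in A2780cis, and for 2977 genes at an unadjusted p-value under 0.05. The count depended on the setting, with 42 genes without untreated A2780 replicate 1 of 6 h, 374 by DESeq2 and 789 with GC offsets, among which 86 of the 87 had the same sign. The split by direction was not stable either, with 412 higher and 377 lower with GC offsets and 50 and 281 with library size alone. Mitotic genes made up 16 of the 57, all lower in A2780cis, where the median growth of the list was -0.80. For CENPE the growth was -0.07 in A2780 and -1.35 in A2780cis (difference -1.28, adjusted p = 0.0252), for CKAP2L 1.22 and -0.16 (difference -1.38, adjusted p = 0.00849) and for GAS2L3 1.09 and -0.75. The late rise of BIRC3 was larger in A2780 (3.12, against 1.12, adjusted p = 0.00517). CDKN1A, sustained in A2780, grew by 1.26 in A2780cis (adjusted p of the difference = 0.0335). For HSPA8 the growth was -2.04 in A2780cis and the difference did not pass (adjusted p = 0.303). For GADD45A it was 1.08, and the difference of -0.82 ± 0.29 (SE) did not pass either.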

How the data were processed

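RNA-Seq of A2780 and A2780cis cells was analysed from the count table, 24 libraries in 8 groups of 3. The authors deposited expected counts, which are not normalized: reads were demultiplexed with bcl2fastq, trimmed with Trimmomatic, aligned with STAR 2.5.2b to GRCh38.p7, and counted on exons with featureCounts, where reads with several alignments added fractions and overlap of several genes was allowed. The libraries were stranded total RNA. The strand setting of the counting is not given in the sources used here, so that overlapping antisense genes are uncertain. Single reads are described in the labels, paired-end reads in the paper.

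Counts were rounded. In R 4.3.3, the 20240 of 63299 genes that passed filterByExpr of edgeR 4.0.16 (minimum count 10, minimum total 15) were scaled with TMM and entered a quasi-likelihood model of all 24 libraries with 1 coefficient per group (16 residual degrees of freedom). Adjusted p-values came from the two-sided quasi-likelihood F-test of edgeR, adjusted over all tested genes after Benjamini and Hochberg, with a threshold of 0.05. The SE was taken as |log2 FC| over the root of F. CPM values are scaled with TMM. The responses at 6 h and 12 h enter the growth, and the growth shares libraries with both, so no correlation between them is given. GC content, span, exon number and coordinates came from GENCODE release 44 and were found for 19908 tested genes. For GC offsets, the median log2 ratio to the mean library was removed in 20 bins of GC content. Promoters came from RefSeq (GRCh38.p14) and were found for 8846 of 10915 protein-coding genes whose mean log2 CPM reached 2. Genes and lists were not tested as sets.

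Named genes were, per class and direction, the 4 largest protein-coding genes (by growth, or by the smaller log2 FC in sustained genes) whose mean log2 CPM reached 2 and whose groups did not overlap, up to 4 members of each list with the smallest p of the growth, and genes that the study names. HSPD1, HSP90AA1, HSP90AB1, DNAJB9, CENPE, KIF23 and FASN were added after their values were seen. Some genes that meet these rules are not reported here. The members, lists and rules were chosen with earlier results of these data known. Alternatives were other size factors, library size alone, no filter, unrounded counts, the replicate number as a block, A2780 alone, DESeq2 1.42.0, removal of lncRNA and rRNA genes, a threshold of 0.01 and each library left out in turn. GC offsets, removal of 2 untreated libraries and the restriction to genes that moved in treated cells were chosen after the data were seen. The procedure was tested on simulated data. Replicate numbers were not used to pair the samples in the main fit. Intervals cover counting and replicate error only, since reads carry no molecular identifiers. Plots and promoter searches used Python 3.11.15 with numpy 2.4.6, pandas 2.3.3 and matplotlib 3.10.9.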

Additional observations from a re-analysis of the deposited data

Results flagged for a closer look

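The growth of the response from 6 h to 12 h differed between the lines for 87 genes by edgeR's interaction test. Among the genes named above, the growth in A2780cis minus the growth in A2780 on the log2 scale was -2.0 for BIRC3 (1.12 against 3.12), -1.84 for GAS2L3 (-0.75 against 1.09), -1.38 for CKAP2L (-0.16 against 1.22), -1.28 for CENPE (-1.35 against -0.07), -1.08 for KIF23 (-0.62 against 0.46) and -0.97 for CDC20 (-1.75 against -0.78). It was -0.97 for HNRNPDL, a splicing regulator (-1.72 against -0.75). The difference was in the other direction for CDKN1A (0.99, 1.26 against 0.27) and WARS1 (0.74, -0.30 against -1.04). The lowest levels of GC-rich genes in each line were in untreated libraries of 6 h. With GC offsets, 86 of the 87 genes were called with the same sign.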

How the results depend on the processing

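The untreated libraries of 6 h set the main limit: the early transient, reversing and shrinking classes and all counts that use those libraries rest partly on them, whereas the total counts at 12 h and in treated cells stayed within 1.5 times under each setting tried. Their split by direction did not: with library size alone, genes lower at 12 h went from 5291 to 3349, and in treated cells those that rose went from 4505 to 7187 and those that fell from 3973 to 2054.

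With single libraries left out, counts ranged from 3405 to 4822 for the growth, from 3805 to 6120 for 6 h, from 9910 to 11368 for 12 h, from 6935 to 8654 for treated cells, from 1846 to 5813 for untreated cells and from 42 to 110 for the difference between the lines. The classes ranged from 160 to 711 early transient, 2391 to 3198 sustained, 713 to 1009 growing, 9 to 33 shrinking, 65 to 328 reversing and 2184 to 2917 late genes. The lowest values for the growth, for 6 h, for untreated cells, for the lines and for the early transient and reversing classes came without untreated replicate 1 of 6 h, and 2324 genes (untreated cells) and 47 genes (lines) were called without untreated replicate 3 of 12 h.

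With untreated replicates 1 and 2 of 6 h left out together, so that the remaining sample is assumed to vary like the other groups, counts were 2233 (growth), 1536 (6 h), 8 (untreated cells), 14 (lines), 48 early transient, 1116 sustained, 285 growing, 3 shrinking, 13 reversing and 1839 late genes. With GC offsets they were 2291 (untreated cells), 789 (lines), 1671 growing and 37 shrinking. With GC offsets and without untreated replicate 1 of 6 h they were 972 (untreated cells), 538 (lines), 189 early transient and 95 reversing. Only 172 early transient and 9 shrinking genes moved in treated cells in the direction of the growth. These settings were chosen after the data were seen. At a threshold of 0.01 there were 149 early transient, 482 growing, 5 shrinking, 40 reversing and 1747 late genes. The lines differed for 331 genes with library size alone, 287 without a filter and 374 by DESeq2. The growth of TESK1 was 0.050 with GC offsets and 0.024 when untreated replicate 1 of 6 h was also left out, and that of BAX was then 0.32.

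The deviations of same-numbered libraries from their group means gave 12 correlations from -0.66 to 0.31, of which 4 were over 0.1. Whether such libraries share more than a number was not tested. With the replicate number as a block, 5112 genes passed for the growth, 6249 at 6 h, 11310 at 12 h, 8722 in treated and 5902 in untreated cells, and 155 for the difference between the lines, with 625 early transient, 3137 sustained, 1095 growing, 19 shrinking, 276 reversing and 2944 late genes. The cause of these changes was not tested.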
